A study of Mus musculus with 16 samples.

Results

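The mitochondrial ribosomal protein genes were taken as every row of the deposited expression table whose symbol is Mrpl or Mrps followed by a number, with or without a closing letter a, b or c. Pseudogene symbols were left out. This rule found 78 of 30386 genes, 49 named for the large subunit (Mrpl) and 29 named for the small subunit (Mrps). They were compared between cultures of neural stem and progenitor cells (NSPCs) that constitutively expressed a *Dbx2* transgene (*Dbx2*-NSPCs, 8 samples) and cultures with a control *GFP* transgene (*GFP*-NSPCs, 8 samples). All cells came from the subventricular zone (SVZ), a neurogenic niche of the adult brain, of C57BL/6J/Babr mice aged 3 months, and were grown as neurospheres with EGF and FGF2. Both groups had been transfected with a pTP6 plasmid and kept under puromycin, so untransfected cells do not enter the comparison. Per the study's methods the cultures came from 2 pairs of lines. The labels give the transgene and a replicate number from 1 to 8, but not the line, so that the p-values measure the spread between cultures of very few lines.

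Mitochondria carry their own ribosome, which translates the mRNAs encoded by mitochondrial DNA. Its RNAs are made inside the organelle, whereas all its proteins are encoded in the nucleus, made in the cytosol and imported. Many of these proteins have a counterpart in the bacterial ribosome, and others are particular to mitochondria. The products of mitochondrial translation are subunits of the oxidative phosphorylation complexes, on which the energy supply of differentiating neural cells is known to depend.

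The libraries were of the 3′ kind (QuantSeq, from 100 ng of total RNA), in which each transcript is read near its poly-A tail, so that the number of reads does not grow with transcript length. The deposited values are CPM, the reads of a gene scaled to a common total, and the recovered totals were 1803928 to 3293285 reads per sample. A level of 3 reads, which corresponds to 0.911 to 1.66 CPM depending on the sample, was taken as the limit of detection; such limits cover counting error only. *Dbx2* itself averaged 77.2 ± 51.8 CPM (SD, n = 8) with the *GFP* transgene and 155 ± 35.4 CPM (n = 8) with the *Dbx2* transgene, a log2 fold change of 1.26 (2-sided exact permutation test over all 12870 splits, p = 0.00357). The log2 fold change of *Dbx2* was 0.54 among the samples numbered 1 to 4 (limma adjusted p = 0.0891) and 1.99 among those numbered 5 to 8, a division that the permutation over all splits does not take into account. These values do not separate transcripts of the transgene from those of the endogenous gene. The 10 NSPC markers summed to 6396 to 7164 CPM in *GFP*-NSPCs and 5437 to 6569 CPM in *Dbx2*-NSPCs. Of these 10 markers, 9 had a log2 fold change below 0 (median -0.34), and 4 were called lower, *Egfr*, *Fabp7*, *Msi1* and *Pax6*. The 6 microglia markers summed to at most 2.45 CPM in any sample, and the 6 endothelial markers to 0.67 to 11.7 CPM in *GFP*-NSPCs and 4.81 to 19.6 CPM in *Dbx2*-NSPCs. Of the latter, *Cdh5* and *Cldn5* were listed at 0, and *Flt1* was higher (1.18 ± 0.874 against 6.84 ± 2.65 CPM, SD, n = 8; log2 fold change 2.29). Of the 5 astrocyte markers, *Aldh1l1* and *Slc1a3* were lower in *Dbx2*-NSPCs and *Gfap* was higher, and their sum ran from 668 to 2111 CPM in *GFP*-NSPCs and from 408 to 1065 CPM in *Dbx2*-NSPCs. Neuronal markers summed to 840 to 1294 CPM and 706 to 906 CPM, oligodendrocyte markers to 54.7 to 112 CPM and 97.2 to 182 CPM, and ependymal markers to 11.3 to 23.0 CPM and 9.33 to 32.4 CPM in the same order of groups. The neuronal markers did not move together. In the samples numbered 1 to 4, limma called *Dcx*, *Map2*, *Rbfox3* and *Snap25* lower. In those numbered 5 to 8, it called *Map2* lower and *Dcx* and *Rbfox3* higher. Whether these cell states have a part in the values below was not tested. In such bulk samples, fewer cells of a type and less RNA per cell cannot be told apart.

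Nearly all members were expressed in every culture. Of the 78, 77 passed the filter on low values (over 1 CPM in 4 or more samples), and 74 of these averaged at least 10 CPM. The exception to the filter was *Mrpl53*, which reached at most 0.35 CPM. The mean levels of the 77 tested members ran from 1.19 to 390 CPM, with a median of 53.5 CPM. The most abundant were *Mrps6*, *Mrpl34* and *Mrpl12*, and the 3 under 10 CPM were *Mrpl23*, *Mrps18b* and *Mrps36*. The protein named for *Mrps36* is known as a component of the oxoglutarate dehydrogenase complex rather than of the ribosome. In sum the members took 0.498% ± 0.0233 of the reads in *GFP*-NSPCs (SD, n = 8) and 0.499% ± 0.0113 in *Dbx2*-NSPCs (SD, n = 8), so their summed level differed by less than the spread between samples. This sum is weighted towards the abundant members, unlike the fold changes below.

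Few members differed between the groups. With limma on log2(CPM + 0.5), adjusted over all 12533 tested genes, 4 of 77 members were lower in *Dbx2*-NSPCs and 2 were higher at an adjusted p under 0.05. Over all tested genes, 7.78% were lower and 8.03% higher, 15.8% in either direction, so the 6 of 77 members (7.79%) were a smaller share than that of all genes. The 4 that fell were *Mrpl42*, *Mrpl54*, *Mrpl48* and *Mrpl3*, all of the large subunit, and the 2 that rose were *Mrps6* and *Mrpl12*. No member had groups that did not overlap, against 3.41% of all tested genes. The fold changes of the members were small, with a median absolute log2 value of 0.12, against 0.19 over the 8651 tested genes of at least 10 CPM. Their median within-group SD was also small, 0.22 on the log2 scale for the members of at least 10 CPM, against 0.28 for those genes. For 56 of the 77 members the 95% interval of the log2 fold change lay wholly between -0.5 and 0.5, so changes larger than that were outside the interval for these members.

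**Figure D1:**
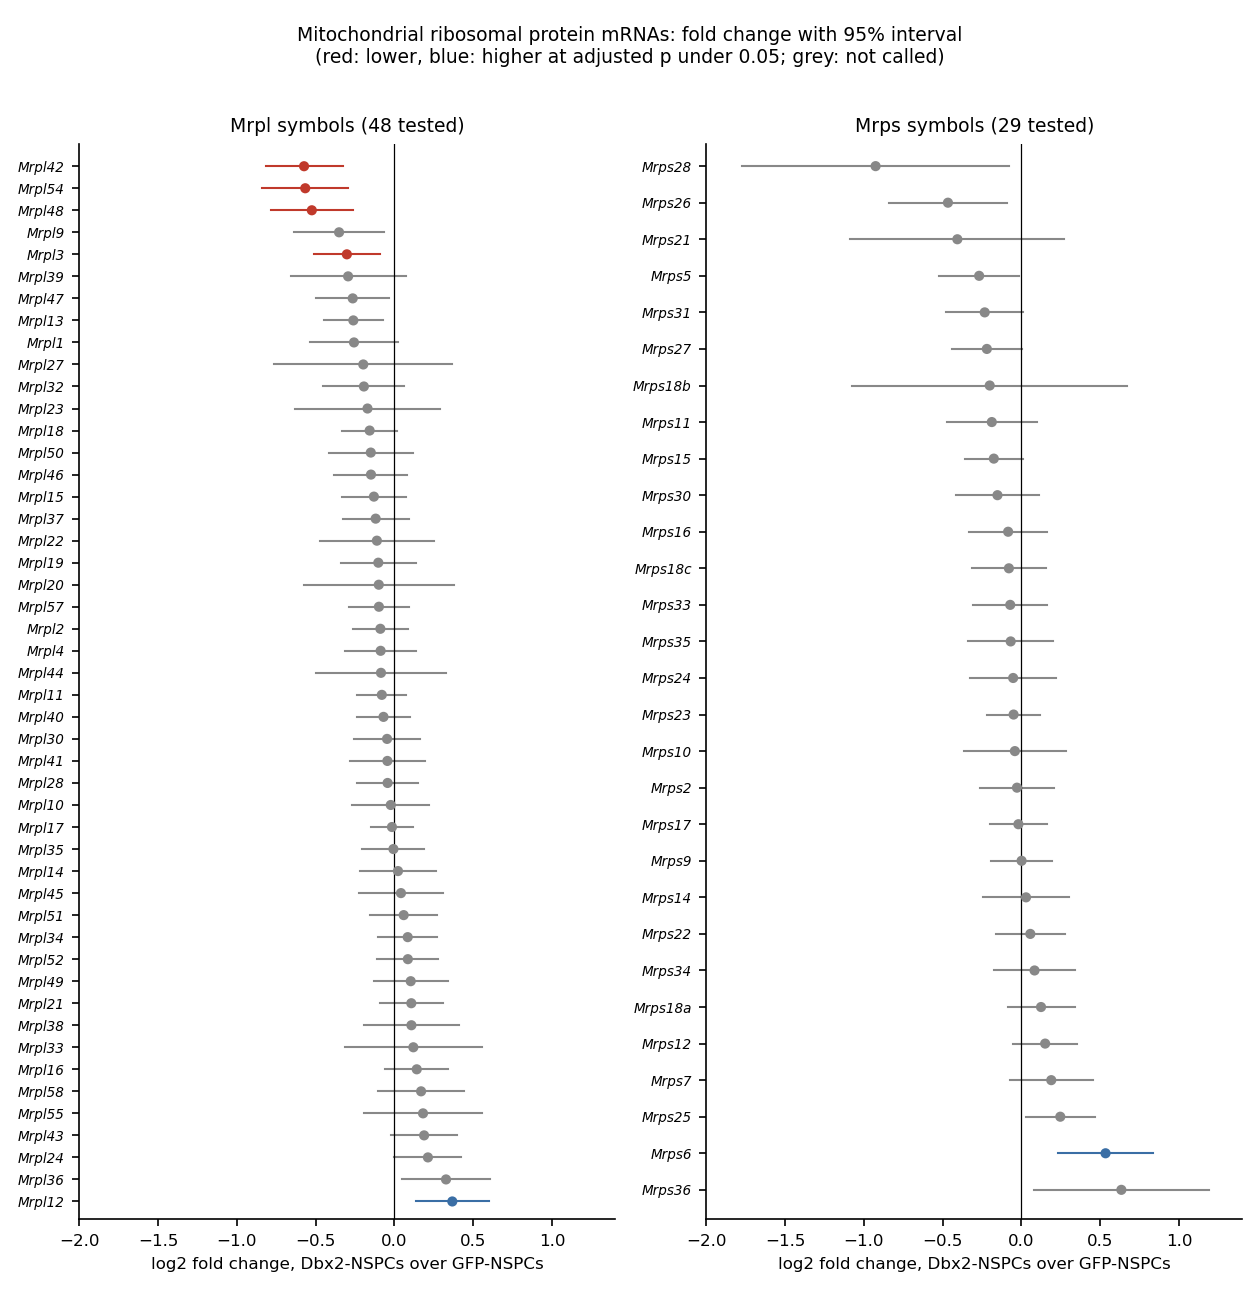
Log2 fold change of each tested member (*Dbx2*-NSPCs over *GFP*-NSPCs, x axis) with its 95% interval, ordered by value, Mrpl genes at the left and Mrps genes at the right; red marks members called lower and blue members called higher at an adjusted p under 0.05. Most intervals cross 0, the 4 red members sit between -0.57 and -0.30, and the widest intervals are those of *Mrps18b*, which rests on few reads, and *Mrps28*.

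The direction of the small differences was uneven. The log2 fold change was below 0 for 51 of the 77 members (66.2%), against 52.7% of all tested genes and 56.4% of those of at least 10 CPM. The median over the members was -0.07, against -0.02 over all tested genes and -0.05 over those of at least 10 CPM. With median-of-ratios scaling the members' median was -0.05 and that of all tested genes 0.0015. With this scaling 47 of the 77 members (61.0%) were below 0, against 49.9% of all tested genes. Members and lists were chosen with earlier results of these data known, and no test was made of these medians.

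*Mrpl42*, a large subunit protein with no bacterial counterpart (chr10:95480805-95501940, GRCm38, minus strand), showed the largest fall among the called members. It was at 102, 142 and 169.7 CPM (lowest, median and highest) in *GFP*-NSPCs and at 73.6, 94.1 and 115 CPM in *Dbx2*-NSPCs. It changed by -0.57 ± 0.12 on the log2 scale (SE, n = 8 against 8; limma adjusted p = 0.00212). The 2 lowest *GFP*-NSPC samples, numbers 6 and 7, lay within the range of the *Dbx2*-NSPCs, whereas the 4 *GFP*-NSPC samples numbered 1 to 4 all lay above it, at 153 to 169.7 CPM.

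*Mrpl54*, likewise particular to mitochondria (chr10:81264713-81266934, minus strand), was at 69.1, 76.6 and 123.4 CPM in *GFP*-NSPCs and at 50.5, 56.9 and 71.3 CPM in *Dbx2*-NSPCs. The change was -0.57 ± 0.13 on the log2 scale (SE; limma adjusted p = 0.00548). Only *Dbx2*-NSPC number 2, at 71.3 CPM, reached into the range of the *GFP*-NSPCs. The *GFP*-NSPC samples numbered 6 to 8, at 111 to 123.4 CPM, stood above the other 5, which lay between 69.1 and 77.7 CPM.

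*Mrpl48*, the third called member that is particular to mitochondria (chr7:100545751-100608301, minus strand), was at 38.4, 53.2 and 62.1 CPM in *GFP*-NSPCs and at 27.7, 33.7 and 44.1 CPM in *Dbx2*-NSPCs, which is a change of -0.52 ± 0.13 on the log2 scale (SE; limma adjusted p = 0.007). The groups overlapped between 38.4 and 44.1 CPM. Its exons share bases with those of *Rab6a* on the opposite strand, and the strand used in counting is not given in the sources used here. *Rab6a* averaged 507 ± 61.7 CPM and 490.2 ± 104 CPM (SD, n = 8 each), with a log2 fold change of -0.07.

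*Mrpl3*, counterpart of a bacterial protein that reaches towards the peptidyl transferase centre (chr9:105053239-105079888, plus strand), had the smallest called change. It was at 41.1, 48.8 and 58.8 CPM in *GFP*-NSPCs and at 34.3, 37.5 and 49.1 CPM in *Dbx2*-NSPCs, a change of -0.30 ± 0.10 on the log2 scale (SE; limma adjusted p = 0.0461). The *Dbx2*-NSPC samples numbered 1 to 3, at 42.7 to 49.1 CPM, lay inside the *GFP*-NSPC range. The call was lost with edgeR and DESeq2, both without a covariate, with every other scaling, with no filter on low values and without the variance trend. It was also lost when any 1 of 13 samples was left out (every *GFP*-NSPC sample but number 8, and *Dbx2*-NSPC numbers 3 to 8). The log2 fold changes were then -0.32 to -0.27, with limma adjusted p-values from 0.0542 to 0.0859. The call was kept with other pseudocounts and with a filter at a mean of 10 CPM. With the division into numbers 1 to 4 and 5 to 8 as a covariate, it was kept in edgeR and in limma (limma adjusted p = 0.01). It was kept too with the replicate number as a block (limma adjusted p = 0.0195).

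Both increases were in members among the 3 most abundant. *Mrps6*, the small subunit counterpart of a bacterial protein (chr16:92058270-92112227, plus strand), was at 214, 333 and 431 CPM in *GFP*-NSPCs and at 350.2, 439.9 and 643 CPM in *Dbx2*-NSPCs. The change was 0.53 ± 0.14 on the log2 scale (SE; limma adjusted p = 0.0153), and it was 0.52 among the samples numbered 1 to 4 and 0.55 among those numbered 5 to 8. Ranges overlapped between 350.2 and 431 CPM. Exons of *Mrps6* share bases with those of *Slc5a3*, a transporter gene on the same strand, which averaged 194 ± 45.2 CPM and 234 ± 94.2 CPM in these groups (SD, n = 8; log2 fold change 0.22, limma adjusted p = 0.468). How reads of the shared bases were assigned is not given in the sources used here, so the level of *Mrps6* is uncertain to that extent.

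*Mrpl12*, counterpart of the bacterial stalk protein that recruits translation factors (chr11:120484613-120489065, plus strand), was at 165, 178 and 207 CPM in *GFP*-NSPCs and at 175, 235 and 315 CPM in *Dbx2*-NSPCs. It changed by 0.37 ± 0.11 on the log2 scale (SE; limma adjusted p = 0.0298). The *Dbx2*-NSPC samples numbered 4 to 8, at 225 to 315 CPM, lay above every *GFP*-NSPC sample, and those numbered 1 to 3, at 175 to 189 CPM, lay within the *GFP*-NSPC range. The call was lost without any 1 of *GFP*-NSPC numbers 4, 6 and 7 or *Dbx2*-NSPC numbers 5 to 8 (log2 fold changes of 0.30 to 0.36, limma adjusted p-values from 0.0514 to 0.0627), and without the variance trend. *Mrpl34*, the remaining member of the 3 most abundant, was at 176, 208 and 268 CPM and at 175, 226 and 261 CPM, with a log2 fold change of 0.08 (95% interval -0.10 to 0.27).

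**Figure D2:**
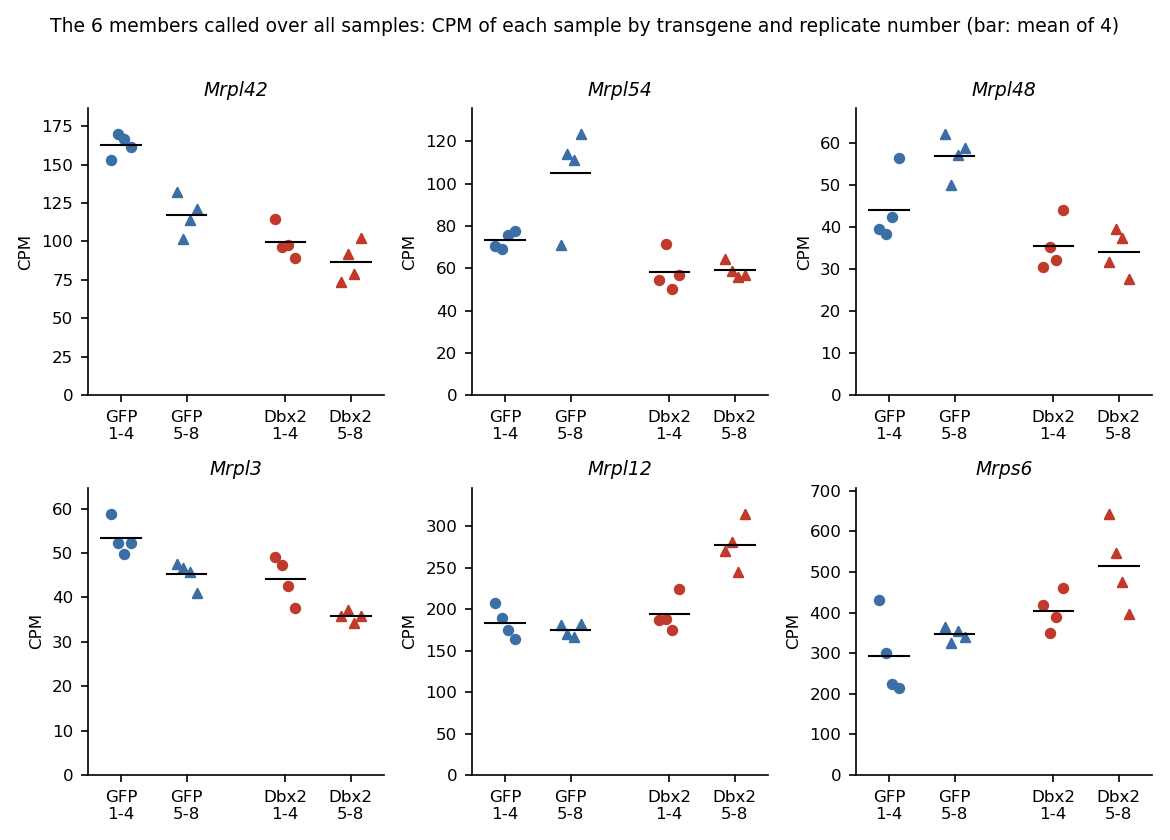
CPM (y axis, from 0) of the 6 called members in each sample, by transgene and replicate number; blue is *GFP*-NSPC and red *Dbx2*-NSPC, circles are numbers 1 to 4, triangles numbers 5 to 8, and each bar is the mean of 4 samples. *Mrpl42*, *Mrpl54*, *Mrpl48* and *Mrpl3* had lower means in *Dbx2*-NSPCs in both number sets, *Mrps6* had higher means in both, and *Mrpl12* separated in numbers 5 to 8.

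By subunit, 4 of 48 tested Mrpl members were lower and 1 was higher, and 0 of 29 Mrps members were lower and 1 was higher. Over all tested genes 7.78% were lower and 8.03% higher, so 4 of 48 was near the share of all genes, and the groups given next are smaller still. With the number set as a covariate, 6 Mrpl members were lower and 1 higher, and 1 Mrps member was lower and 2 were higher. That fit called 1533 of all 12533 tested genes lower and 1501 higher, 24.2% in either direction. Without the covariate, 6 of the Mrps members had an unadjusted limma p under 0.05, against 3654 of all 12533 tested genes. Both edgeR and DESeq2, also without the covariate, called 0 Mrps members lower. The medians of the log2 fold change were -0.08 and -0.05. Assigning *Mrps30* and *Mrps18a*, whose proteins sit in the large subunit, by structure, and leaving out *Mrps36*, gave the same counts of 4 and 0 lower. Among the large subunit members with a bacterial counterpart, 1 of 30 was lower and 1 higher; among those particular to mitochondria, 3 of 20 were lower and 0 higher. In the small subunit, 0 of 16 members with a bacterial counterpart were lower and 1 was higher, and 0 of 10 members particular to mitochondria were called. The medians of these 4 groups were -0.08, -0.08, -0.05 and -0.07, so they lay close to each other. Whether the subunits differ was not tested.

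The score of a sample, the mean log2(CPM + 0.5) of its 77 tested members less the mean over all tested genes, gives each member the same weight. It was 1.28 ± 0.068 (SD, n = 8) in *GFP*-NSPCs, with a range of 1.18 to 1.39, and 1.20 ± 0.032 (SD, n = 8) in *Dbx2*-NSPCs, with a range of 1.16 to 1.25. The groups overlapped, since the *GFP*-NSPC samples numbered 5 to 8 scored between 1.18 and 1.26. The difference of the means was -0.084 over all samples, -0.13 among numbers 1 to 4 and -0.035 among numbers 5 to 8. With the median over the members in place of the mean, the difference over all samples was -0.017. For the Mrpl members the difference was -0.094 in numbers 1 to 4 and -0.083 in numbers 5 to 8, whereas for the Mrps members it was -0.20 in numbers 1 to 4 and 0.044 in numbers 5 to 8. The Mrps score of the *GFP*-NSPC samples numbered 1 to 4 ran from 0.94 to 1.08, above the 0.79 to 0.89 of the same numbers of *Dbx2*-NSPCs. In numbers 5 to 8 these scores overlapped, at 0.79 to 0.90 and 0.82 to 0.97.

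**Figure D3:**
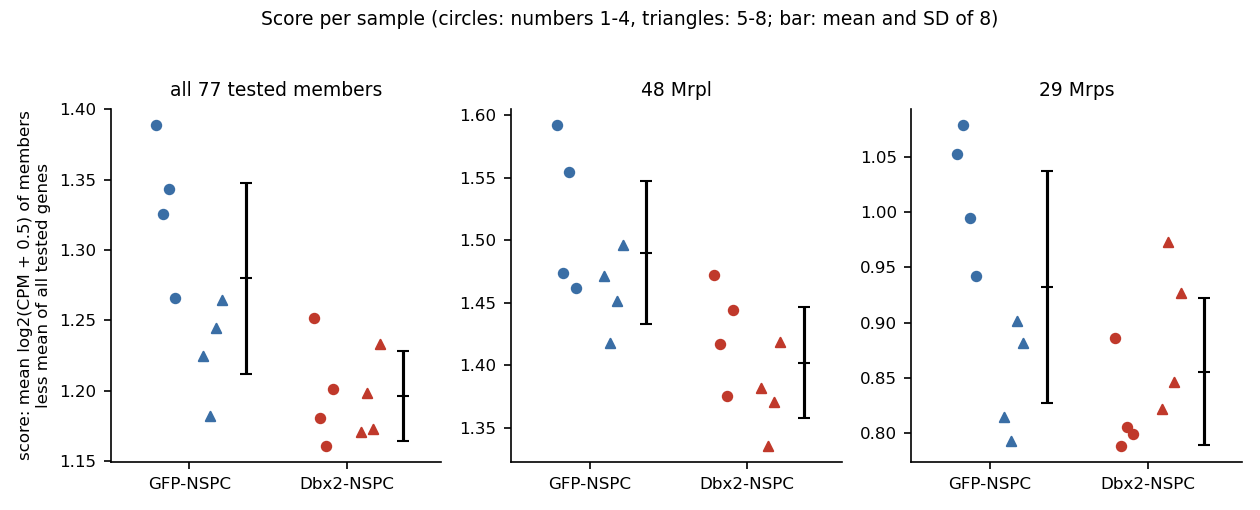
Score per sample (y axis, log2 scale, not starting at 0) of all tested members, the Mrpl members and the Mrps members; circles are numbers 1 to 4, triangles numbers 5 to 8, and the bar gives the mean and SD of 8 samples. The *GFP*-NSPC samples numbered 1 to 4 sit at the top for all members, between 1.27 and 1.39, and the remaining samples lie between 1.16 and 1.26.

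Samples with replicate numbers 1 to 4 stood apart from those with 5 to 8: over both groups, 29.9% of all tested genes and 15 of 77 members differed between these number sets. What the numbers stand for is not in the labels, and the division was known from earlier results of these data. Within numbers 1 to 4 alone, limma called 2 members lower (*Mrpl42* and *Mrps15*) and 2 higher (*Mrpl20* and *Mrpl33*), against 15.6% of all genes. Within numbers 5 to 8 alone it called 8 lower (*Mrpl3*, *Mrpl9*, *Mrpl20*, *Mrpl33*, *Mrpl42*, *Mrpl48*, *Mrpl54* and *Mrps5*) and 6 higher (*Mrpl12*, *Mrpl38*, *Mrpl43*, *Mrpl58*, *Mrps6* and *Mrps7*), against 23.2%. With the number set as a covariate over all samples, 7 members were lower and 3 higher, against 24.2% of all genes. The members added by the covariate were *Mrpl13*, *Mrpl47* and *Mrps5*, which fell by 0.26, 0.27 and 0.27 on the log2 scale, and *Mrps25*, which rose by 0.25. With the replicate number as a block, 6 members were lower and 2 higher, against 21.7% of all genes, and *Mrpl13* (limma adjusted p = 0.0341) and *Mrps5* (limma adjusted p = 0.0149) were the additions.

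The fold change between the groups differed between the number sets for 6 of 77 members (interaction in limma, adjusted p under 0.05), against 9.44% of all tested genes. Because the labels do not give the line, differences between lines and an effect of the transgene cannot be told apart here. *Mrpl33*, a small protein of the large subunit with a bacterial counterpart (chr5:31596935-31664384, plus strand), changed in opposite directions. Its *GFP*-NSPC samples were at 38.3, 35.3, 46.6 and 36.7 CPM for numbers 1 to 4 and at 80.3, 74.2, 68.6 and 88.8 CPM for numbers 5 to 8. The *Dbx2*-NSPC samples were at 83.2, 76.5, 79.5 and 59.2 CPM and at 52.8, 51.6, 45.6 and 44.2 CPM in the same order. Within each number set the groups did not overlap. This is easier to reach with 4 samples a group than with 8, and its share over all tested genes was not counted. The log2 fold change was 0.92 ± 0.14 in numbers 1 to 4 and -0.68 ± 0.11 in numbers 5 to 8, a difference of -1.59 ± 0.19 (limma adjusted p = 1.17e-06). Over all 16 samples these values gave a log2 fold change of 0.12 ± 0.21. Exons of *Mrpl33* share bases with those of *Gm43809*, annotated as a processed transcript on the same strand. How reads of these bases were assigned is not given in the sources used here, so the level of *Mrpl33* is uncertain to that extent.

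*Mrpl20*, counterpart of a bacterial protein that binds ribosomal RNA early in assembly (chr4:155802878-155809975, plus strand), had the same form. In numbers 1 to 4 it was at 36.3 to 73.3 CPM in *GFP*-NSPCs and at 78.5 to 85.9 CPM in *Dbx2*-NSPCs, and in numbers 5 to 8 at 107 to 113 CPM and at 47.2 to 64.8 CPM. In neither set did the groups overlap, which was likewise not counted over all tested genes. The log2 fold changes were 0.73 ± 0.18 and -0.93 ± 0.11, a difference of -1.65 ± 0.21 (limma adjusted p = 4.03e-06).

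The other 4 members differed by less, with higher fold changes in numbers 5 to 8. *Mrpl12* had log2 fold changes of 0.07 in numbers 1 to 4 and 0.66 in numbers 5 to 8 (difference 0.59 ± 0.14, limma adjusted p = 0.00724). *Mrpl38*, a large subunit protein particular to mitochondria (chr11:116131817-116138868, minus strand), had -0.27 and 0.49 (difference 0.76 ± 0.19, limma adjusted p = 0.00951). *Mrps7*, counterpart of a bacterial protein that binds ribosomal RNA in the head of the small subunit (chr11:115603925-115608036, plus strand), had -0.13 and 0.51 (difference 0.64 ± 0.18, limma adjusted p = 0.025). Its *Dbx2*-NSPC samples numbered 5 to 8 lay at 70.6 to 73.3 CPM, above all other samples, which reached at most 59.0 CPM. Exons of *Mrps7* share bases with those of *Gga3* and *Mif4gd* on the opposite strand, and the strand used in counting is not given. The log2 fold changes of *Gga3* and *Mif4gd* were -0.0031 and 0.088 in numbers 1 to 4 and 0.68 and 1.09 in numbers 5 to 8. Whether reads of the shared bases enter the values of *Mrps7* was not tested. *Mrps14*, also with a bacterial counterpart (chr1:160195215-160202170, plus strand), had -0.34 and 0.40 (difference 0.73 ± 0.21, limma adjusted p = 0.0211), and neither of its values within a number set passed the threshold (limma adjusted p = 0.132 and 0.0619).

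**Figure D4:**
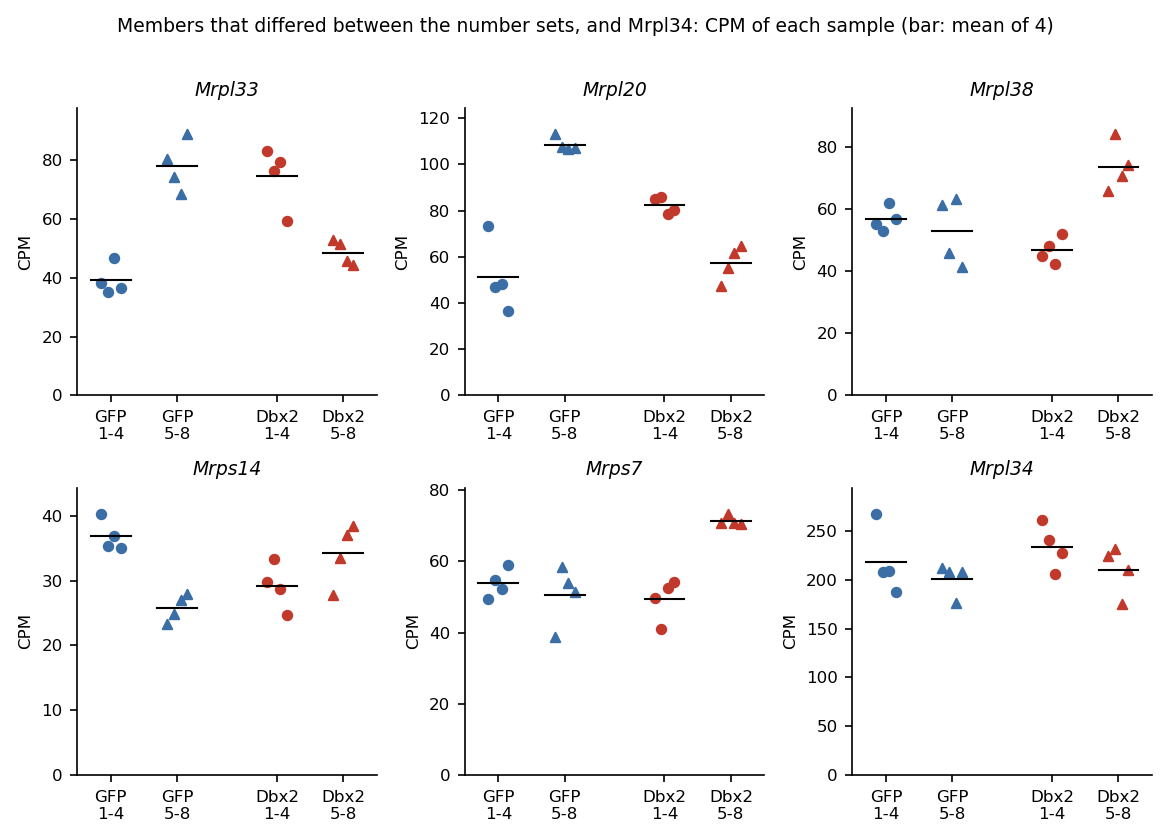
CPM (y axis, from 0) in each sample of 5 members whose fold change differed between the number sets, and of *Mrpl34* for comparison, in the order *GFP*-NSPC then *Dbx2*-NSPC, numbers 1 to 4 (circles) and 5 to 8 (triangles); each bar is the mean of 4 samples. *Mrpl33* and *Mrpl20* were higher in *Dbx2*-NSPCs in numbers 1 to 4 and lower in numbers 5 to 8, and *Mrps7* stood out in *Dbx2*-NSPCs numbered 5 to 8.

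Several of these members moved together with the genes that lie beside them in the genome. For each member the 20 nearest tested genes on its chromosome were taken, and the median of their log2 fold changes was set beside the member's own value. The 20 genes nearest to *Mrpl42* reached 2.28 Mb from it and had a median of -0.80 over all samples, with 19 of 20 below 0, against -0.57 for *Mrpl42*. Among them was *Ndufa12*, a subunit of respiratory complex I, at -0.62. The genes beside *Mrpl54* had a median of -0.40, with 16 of 20 below 0. The genes beside *Mrpl20* had medians of 0.68 in numbers 1 to 4 and -0.94 in numbers 5 to 8, close to its own 0.73 and -0.93. One of them, 0.0258 Mb away, was *Aurkaip1*, which encodes a small subunit protein under another symbol, at 0.79 and -0.78.

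*Mrpl12*, *Mrpl38*, *Mrps7* and *Mrpl58*, the last encoding a peptidyl-tRNA hydrolase that rescues stalled ribosomes, all lie on chromosome 11. In numbers 5 to 8 their log2 fold changes were 0.66, 0.49, 0.51 and 0.40, and those of their neighbours had medians of 0.57, 0.55, 0.54 and 0.55. In numbers 1 to 4 the neighbours' medians were 0.02, -0.14, -0.08 and -0.03. The neighbourhoods of *Mrps7* and *Mrpl58* overlap and include each other. Those of *Mrpl38* and *Mrps7* overlap in position as well, and the genes they share were not counted. The medians of such members need not be separate observations.

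Other members moved without their neighbours. *Mrpl48* had a log2 fold change of -0.52 and neighbours with a median of 0.12, *Mrpl3* had -0.30 and 0.07, and *Mrps6* had 0.53 and 0.01. The genes beside *Mrpl33* had medians of 0.01 in numbers 1 to 4 and 0.09 in numbers 5 to 8, against 0.92 and -0.68 for *Mrpl33* itself. With the median of the neighbours subtracted in every sample, an alternative chosen after the data were seen, 6 members were called lower (*Mrpl3*, *Mrpl13*, *Mrpl17*, *Mrpl48*, *Mrps5* and *Mrps26*) and 1 higher (*Mrps6*), against 14.0% of all genes. The calls of *Mrpl42*, *Mrpl54* and *Mrpl12* were lost (log2 values of 0.12, -0.15 and 0.11). The difference between the number sets was then called for 1 member, *Mrpl33* (-1.66 ± 0.20, limma adjusted p = 1.4e-06), against 7.01% of genes. For 6 of the 77 members the neighbours' median was beyond 0.5 in either direction in at least 1 number set. The same share over all tested genes was not counted, so whether this is particular to the members cannot be told. What makes neighbouring genes move together in these samples was not tested.

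**Figure D5:**
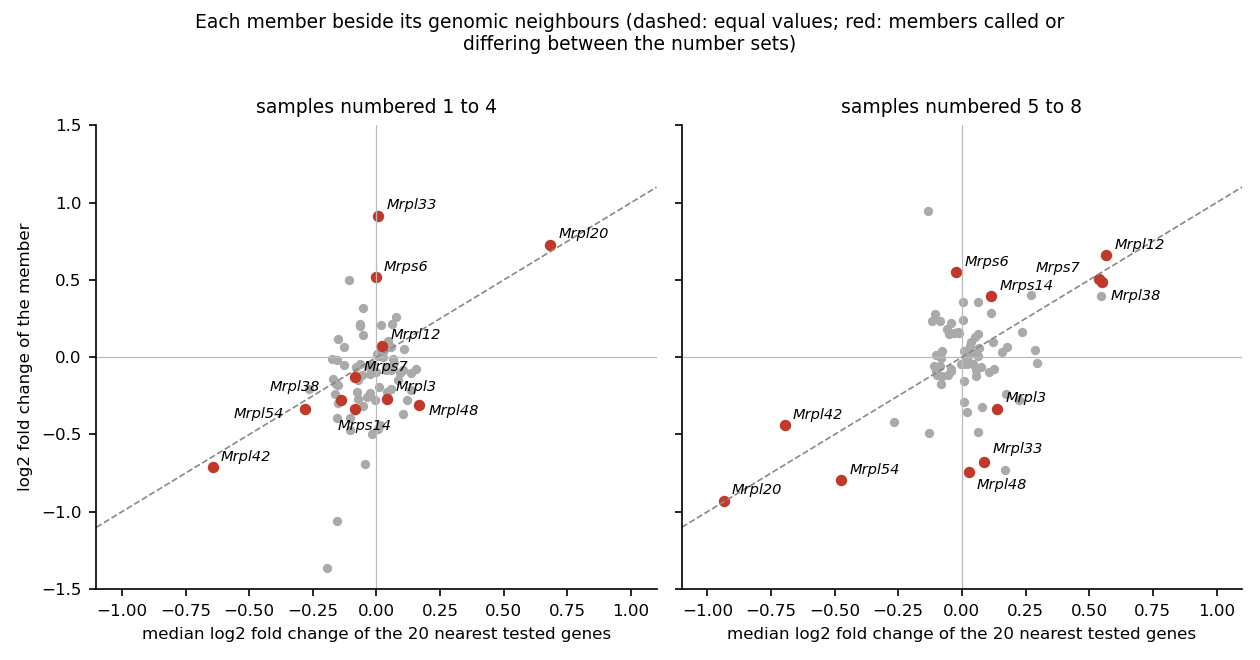
Log2 fold change of each tested member (y axis) against the median log2 fold change of its 20 nearest tested genes (x axis), within the samples numbered 1 to 4 (left) and 5 to 8 (right); the dashed line marks equal values, and red points are members called over all samples or differing between the number sets. *Mrpl20*, *Mrpl42* and, in numbers 5 to 8, *Mrpl12*, *Mrpl38* and *Mrps7* of chromosome 11 lie near the line, whereas *Mrpl33* and *Mrps6* lie near a neighbour median of 0.

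RefSeq promoter windows (GRCm38.p6, 250 bases before to 50 after the start) were matched by symbol for 69 of the 78 members, with 75 windows in all. Sequences known for nuclear genes of mitochondria were searched on both strands, each motif on its own. CCGGAAG, an ETS motif, was in 34.7% of the members' windows, against 17.1% of the windows of tested genes and 8.86% of all 32851 windows. GCGCANGCG, an NRF1 motif, was in 21.3%, 13.6% and 6.25%, AAGATGGC, a YY1 motif, in 16%, 4.47% and 2.75%, and CACGTG, the E-box, in 9.33%, 9.90% and 7.15% of the same windows. The 100 bases before the start, taken as the earlier of the RefSeq and GENCODE starts, are printed for the members described above that have a single window in the table and a motif in these bases, with the motif in capitals and the transcribed strand from 5′ to 3′. The members are *Mrpl12* (chr11:120484513-120484612, NRF1), *Mrpl20* (chr4:155802778-155802877, E-box) and *Mrpl34* (chr8:71464826-71464925, ETS), all on the plus strand. They stand for a member that was higher in numbers 5 to 8, a member that changed in opposite directions and a member whose interval lay within 0.27 of 0.
Mrpl12: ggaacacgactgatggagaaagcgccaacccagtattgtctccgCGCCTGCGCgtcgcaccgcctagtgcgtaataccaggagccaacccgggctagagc
Mrpl20: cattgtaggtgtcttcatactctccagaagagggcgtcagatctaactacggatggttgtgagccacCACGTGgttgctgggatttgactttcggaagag
Mrpl34: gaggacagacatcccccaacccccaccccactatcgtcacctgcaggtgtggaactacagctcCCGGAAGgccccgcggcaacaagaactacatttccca
A match describes the letters of these windows and was not tested as a binding site. Of the factors named for these motifs, *Nrf1* averaged 34.3 ± 4.91 CPM in *GFP*-NSPCs against 27.3 ± 4.69 CPM (SD, n = 8; log2 fold change -0.33, limma adjusted p = 0.067), and *Yy1* and the ETS factor gene *Gabpa* had log2 fold changes of -0.12 and -0.22. Of 10 tested genes for transcription factors and coactivators of mitochondrial genes, limma without a covariate called 0 in either direction, against 15.8% of all tested genes. Of these 10, 1 had an unadjusted p under 0.05, against 3654 of all 12533 tested genes. Their log2 fold changes were below 0 for 9 of 10 (median -0.17). With the number set as a covariate, *Nrf1* was called lower.

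The genes that work with the mitochondrial ribosome were called in few cases as well. Unless stated otherwise, the counts that follow are those of limma over all samples without a covariate, and the covariate is the number set. The fit without a covariate called 15.8% of all tested genes, and 3654 of 12533 had an unadjusted p under 0.05 in it. The covariate called 24.2% of all tested genes, numbers 1 to 4 alone 15.6% and numbers 5 to 8 alone 23.2%. The 5 subunit proteins under other symbols (*Dap3*, *Ptcd3*, *Chchd1*, *Aurkaip1* and *Gadd45gip1*) had 0 calls, with 1 at an unadjusted p under 0.05. Their log2 fold changes ran from -0.25 to 0.13. *Chchd1* was called lower with the covariate and in numbers 1 to 4 alone, and *Aurkaip1* was called higher in numbers 1 to 4 alone and lower in numbers 5 to 8 alone. Of 27 genes for assembly and RNA modification, 1 was lower, *C1qbp*, a matrix protein known to be needed for mitochondrial translation (158 ± 23.1 against 124 ± 19.1 CPM, SD, n = 8; log2 fold change -0.36, limma adjusted p = 0.0335). Of 13 translation factors, 1 was lower, *Tsfm*, the mitochondrial elongation factor Ts, which averaged 17.1 ± 4.21 against 9.77 ± 2.22 CPM (SD, n = 8; log2 fold change -0.77 ± 0.17, limma adjusted p = 0.00492). The covariate added *Mpv17l2*, an assembly factor, as higher. Of 17 mitochondrial aminoacyl-tRNA synthetases limma called 0, with 3 at an unadjusted p under 0.05. *Iars2* was called higher with the covariate and in numbers 5 to 8 alone.

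Of 14 genes for mitochondrial transcription and mRNA stability, 2 were lower and 1 was higher, against 7.78% and 8.03% of all tested genes. *Tfam*, which packages mitochondrial DNA and is needed for its transcription, fell by 0.50 ± 0.13 on the log2 scale (limma adjusted p = 0.015). *Supv3l1*, the helicase of the mitochondrial RNA degradosome, fell by 0.40 ± 0.13 (limma adjusted p = 0.0383). *Lrpprc*, which stabilises mitochondrial mRNAs, rose by 0.51 ± 0.12 (limma adjusted p = 0.00697). Among 12 tested mRNAs of the mitochondrial genome, *mt-Nd2*, *mt-Nd4* and *mt-Nd5* were higher, with log2 fold changes of 0.81, 0.76 and 0.56, and 0 were lower. Within numbers 1 to 4 alone 0 of these 12 were called by limma, with 6 below 0 and a median of 0.0043. Within numbers 5 to 8 alone 6 were called higher, with 2 below 0 and a median of 0.35. Of all tested genes, 15.6% were called in numbers 1 to 4 alone and 23.2% in numbers 5 to 8 alone, in either direction.

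The cytosolic ribosome and the respiratory chain gave other counts. Of 76 cytosolic ribosomal protein genes, 15 were lower and 0 were higher, against 7.78% and 8.03% of all tested genes. Their median log2 fold change was -0.18, with 69 below 0. The largest falls were those of *Rpl41* (-0.68), *Rpl35a* (-0.66) and *Rps15* (-0.58). The covariate gave 23 lower and 1 higher (*Rpl11*), numbers 1 to 4 alone 6 lower and 2 higher, and numbers 5 to 8 alone 15 lower and 1 higher. Of all tested genes, 24.2%, 15.6% and 23.2% were called in either direction, in the same order of fits. Of 76 nuclear genes for oxidative phosphorylation subunits, 5 were lower, led by *Atp5b* (-0.73), *Ndufa12* (-0.62) and *Atp5d* (-0.56), and 2 were higher, *Ndufv3* (0.61) and *Ndufb7* (0.24). The covariate gave 9 lower and 4 higher. Numbers 1 to 4 alone gave 7 lower and 2 higher with a median of -0.11, and numbers 5 to 8 alone 9 lower and 12 higher with a median of 0.017. In numbers 5 to 8 alone the calls made up 27.6% of this list, against 23.2% of all genes. Their median over all samples was -0.06, near the -0.07 of the mitochondrial ribosomal proteins. These lists share all samples and were not tested against each other.

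Members that were not called include some whose values depended on single samples, and they are named here after their values were seen. *Mrps28*, counterpart of a bacterial small subunit protein (chr3:8802146-8923918, minus strand), had the lowest log2 fold change of all members, -0.93 ± 0.41 (limma adjusted p = 0.136). It was at 9.82, 14 and 19.0 CPM in *GFP*-NSPCs and at 1.08, 9.80 and 15.2 CPM in *Dbx2*-NSPCs, where numbers 3, 4 and 5 lay at 2.61, 1.08 and 4.22 CPM and the other 5 samples at 9.48 CPM or above. Number 4, at 1.08 CPM, was near the limit of detection, and without it the log2 fold change of *Mrps28* was -0.61 ± 0.32. *Mrps26*, particular to mitochondria, differed by -0.47 ± 0.18 on the log2 scale (SE; limma adjusted p = 0.0829), with *Dbx2*-NSPC number 5 at 14.8 CPM and the other 7 at 30.3 to 38.5 CPM. *Dbx2*-NSPC number 4 was the lowest of its group for 23 of 77 members (29.9%), and also for 25.0% of the tested genes of at least 10 CPM.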

How the data were processed

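The authors made QuantSeq 3′ libraries from 16 cultures, trimmed the reads with bbduk, aligned them to GRCm38 (STAR 2.5.0a, with Ensembl annotation) and deposited 1 table of CPM for 30386 genes; the tool and strand used for counting are not given in the sources used here. All 16 columns were used and 0 were left out. Whole reads were recovered from the CPM of a single read (99.99% to 100% of the values above 0 of a sample lay within 0.1 read of a whole number). No transformation beyond the total is in the deposited CPM, whose columns summed to 999485 to 999614.

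Samples were grouped by the transgene in the labels. The test was limma (version 3.58.1, R 4.3.3) on log2(CPM + 0.5) of all genes over 1 CPM in 4 or more samples (lmFit, then eBayes, trend on, 2-sided, Benjamini-Hochberg adjustment over all 12533 tested genes, threshold 0.05). All 16 samples entered it, without covariates. A fold change on this scale understates the change of low genes. The study fitted the cell line as a covariate, which the labels do not give, so the division into replicate numbers 1 to 4 and 5 to 8 was used in its place as an alternative and in the interaction. Same-numbered samples of the 2 groups, numbered alike in the titles, deviated together from their group means (correlation across genes 0.152 to 0.303 in 8 of 8 pairs), but samples of other numbers from the same number set did so nearly as much (mean 0.199, against 0.226); the replicate block was run as an alternative. Alternatives were pseudocounts of 0.1 and 2, other filters and scalings, the recovered reads in DESeq2 1.42.0 or edgeR 4.0.16, eBayes without trend, each number set alone, and samples left out; those chosen after the data were seen are named with their results, beside limma on TMM-scaled reads.

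The members and gene lists were chosen with earlier results of these data known. Members given by sample are, per subunit, up to 6 called members with the largest change and at least 10 CPM, up to 3 called higher, the 3 most abundant, any without overlap and up to 6 with a called interaction; in other lists at most 3 called genes are named with the largest changes, and others by count. Positions came from GENCODE M21 and promoters from RefSeq. The fits were tested on simulated data with 200 of 12533 genes changed between the groups. Another 200 changed in opposite directions in the number sets. The simulated data had a fixed dispersion and no difference between number sets in the other genes, unlike the real samples. Tables were handled with Python 3.11.15, pandas 2.3.3, numpy 2.4.6 and scipy 1.17.1, and plots with matplotlib 3.10.9.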

Additional observations from a re-analysis of the deposited data

Results flagged for a closer look

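In 154 groups of 8 samples (77 members, 2 transgenes), 12 held a sample far from the other 7 by Dixon's test; about 1 in 20 such groups would by chance. In *Dbx2*-NSPCs number 4 was low for *Mrpl27* (7.53 CPM, others 29.6 to 47.2), *Mrpl39* (16.5 CPM, others 30.3 to 44.3), *Mrps21* (1.44 CPM, others 8.14 to 14.9) and *Mrps30* (28.7 CPM, others 41.4 to 50.7), and high for *Mrpl28* (96.5 CPM, others 70.4 to 79.9). The others in *Dbx2*-NSPCs were number 7 for *Mrpl1* (23.0 CPM, others 13.6 to 17.3), number 5 for *Mrps26* (14.8 CPM, others 30.3 to 38.5) and number 2 for *Mrps34* (34.9 CPM, others 47.8 to 62.5). In *GFP*-NSPCs they were number 5 for *Mrpl24* (37.1 CPM, others 46.2 to 54.9) and *Mrps7* (38.8 CPM, others 49.5 to 59.0), number 1 for *Mrpl34* (268 CPM, others 176 to 212) and number 6 for *Mrps9* (40.8 CPM, others 46.3 to 51.4).

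The fold change in the samples numbered 5 to 8 less that in numbers 1 to 4 passed limma's interaction test for *Mrpl33* (-1.59), *Mrpl20* (-1.65), *Mrpl12* (0.59), *Mrpl38* (0.76), *Mrps14* (0.73) and *Mrps7* (0.64). The 2 largest of these differences are negative and the other 4 positive.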

How the results depend on the processing

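The counts of 4 members lower and 2 higher stayed within 1.5 times under other pseudocounts, filters and scalings, without trend, and with edgeR and DESeq2. The replicate block called 1 small subunit member lower, *Mrps5*, in place of 0, and it took no call away. The number set as covariate gave 7 members lower, 1 of the small subunit, and 1533 of all genes lower; edgeR with this covariate, added after seeing the data, gave 1 small subunit member lower and 1572 of all genes higher. Numbers 1 to 4 alone gave 2 members lower, 1 in each subunit, and numbers 5 to 8 alone 8 lower (7 and 1), 6 higher and 1467 of all genes lower, with a members' median of -0.00519. *Dbx2* was not called in numbers 1 to 4 alone (log2 fold change 0.54, limma adjusted p = 0.0891). In numbers 1 to 4 alone *Mrpl20* (0.73), *Mrpl38* (-0.27), *Mrps14* (-0.34) and *Mrps7* (-0.13) had the opposite sign of the value over all samples, and in numbers 5 to 8 alone *Mrpl33* did (-0.68). With neighbouring genes subtracted per sample, 1 member was higher and 2 small subunit members were lower, the fold change differed between number sets for 1 member, and the signs turned for *Mrpl42* (0.12), *Mrpl38* (-0.13), *Mrps14* (-0.0146) and *Mrps7* (-0.0783); subtracted per gene, they turned for *Mrpl42* (0.22), *Mrpl20* (0.0295), *Mrpl38* (-0.11) and *Mrps7* (-0.0242). The score difference was -0.017 with the median over members. The cause was not tested.

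Leaving out each sample in turn, chosen after seeing the data except for *GFP*-NSPC replicate 1, gave 3 to 6 members lower and 1 to 3 higher, 3 to 6 large subunit and 0 small subunit members lower, 816 to 1128 genes lower and 868 to 1082 higher, and a members' median of -0.08 to -0.05. With 1 read at 0.304 to 0.554 CPM, members of about 1 CPM (*Mrps18b*, *Mrps36*) rest on few reads, and depth limits what can be said of them.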
